A study of Homo sapiens with 16 samples.

Results

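The expression of U937 cells, a human leukaemia line of monocytic type, was compared 48 h after induction of AML1-ETO with that of control cells taken at the same time. The comparison was defined by the sample titles and holds 4 of the 16 arrays of the series, 2 of induced and 2 of control cells. All cells, controls included, carried the AML1-ETO construct behind a tetracycline-controlled promoter, so the groups shared the transgene and differed in whether it had been induced. Both groups were grown in RPMI medium with fetal calf serum and antibiotics. The labels give no clone, agent or concentration for the switch. The other 12 arrays, 2 for each of the controls of 0, 24 and 72 h and for each of the induced cultures of 12, 24 and 72 h, entered the fit to estimate the spread, and the arrays of 24 and 72 h served as neighbours in time. Total RNA was hybridised to Affymetrix U95Av2 oligonucleotide arrays. Whether the 2 replicates of a group were separate cultures is not stated. The p-values therefore rest on the spread between these samples alone, which may be technical, and the number of arrays limits the precision.

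AML1-ETO arises from a chromosomal translocation of acute myeloid leukaemia. It joins the DNA-binding domain of RUNX1, a transcription factor needed for blood cell formation, to nearly all of RUNX1T1 (ETO), a protein that recruits histone deacetylases and other corepressors. The fusion also binds E proteins, other factors of the haematopoietic regulatory complex and the partner subunit CBFB. Cells that carry it are known for a block in granulocytic maturation.

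Values are the deposited linear intensities of probe sets, some of which are negative. Values under 135.61, the 40th percentile of all values and here called the floor, were raised to it before log2 was taken. Of 12559 probe sets other than the array's controls, 7824 passed a filter on low values and were tested with limma. A probe set with a Benjamini-Hochberg adjusted p under 0.05 is said to have risen or fallen. Where arrays of the lower group lay at the floor, a fold change is given as "at least". The medians of the 4 arrays were 330.1 and 327.9 in induced and 293.6 and 286.8 in control cells, and 23.5% to 27.2% of their values were below 0. Of 13 marker genes of a monocytic line that were on the array, 6 were above the floor on all 4 arrays, among them ITGB2, LYZ and ELANE, while ITGAM and CSF1R were above it on none and CD14, CD68 and MPO on 1 array each. CD3D, MS4A1, HBB, EPCAM, KRT5 and COL3A1, markers of lymphoid, erythroid, epithelial and fibroblast cells, were at or under the floor on all 4 arrays. Other markers of those cells were above it on all 4, namely CD3E and CD79A (lymphoid), ALAS2 (erythroid) and COL1A1 (fibroblast), and the lymphoid CD2 was above it on 2. The part of other cells or of unspecific signal in these readings was not tested.

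RUNX1T1, the ETO part of the fusion, was read first as a check of the labels. Its tested probe set read 8649.6 and 3974 in induced cells and -92.3 and 91.4 in control cells. Both induced arrays lay far above the floor and both control arrays under it, and replicate 1 of the induced cells read higher than replicate 2. The difference was at least 43.2-fold (log2 5.43, SE 0.80, limma adjusted p = 0.000391). The 3 further RUNX1T1 probe sets did not pass the filter and read between -158.6 and 206.8 on the 4 arrays.

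At 48 h the induced cells differed from control cells in both directions. Of 5606 genes more rose as deposited (638 against 501), and more fell after median centring (441 against 323). Of 27 tested genes of the MYC network and ribosome biogenesis 21 fell. Of 28 genes of the amino acid response and tRNA synthetases 19 fell, and of 22 of nucleotide and one-carbon synthesis 14. Among histone genes 6 of 12 rose and 0 fell. Adhesion genes went both ways, with 8 of 27 higher and 5 lower, and 6 and 6 after median centring. These counts and their order moved with the processing, as given below. CDKN1A, which encodes the kinase inhibitor p21, was among the largest rises, and the myeloid factors IRF8 and SPI1 were among the genes that fell to the floor on at least 1 array. Of 7824 probe sets 1499 were called (19.2%), 820 of them higher (10.5%) and 679 lower (8.68%) in induced cells. Without induced replicate 1 or 2 the count was 933 or 920, and without control replicate 1 or 2 it was 854 or 880. Counted once per gene, 1139 of 5606 were called (20.3%), and 638 of 5606 genes rose (11.4%) and 501 fell (8.94%).

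All called probe sets had induced and control arrays that did not overlap, which 60.4% of all tested probe sets also showed (34.9% with induced cells higher and 25.4% with induced cells lower). The median fold among those that rose was 2.53, with 595 over 2-fold and 170 over 4-fold. Among those that fell it was 2.52, with 476 over 2-fold and 148 over 4-fold. Some of these folds are lower bounds, 172 among the rises and 96 among the falls. The direction of the whole depended on the scaling between arrays. The median log2 difference of all tested probe sets was 0.09 as deposited, 0 after quantile normalization and -0.07 after the arrays were centred on 1 median. The share of calls that were higher was 54.7%, 50.03% and 41.1% in turn. Median centring lowered the number of rises to 430.

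**Figure D1:**
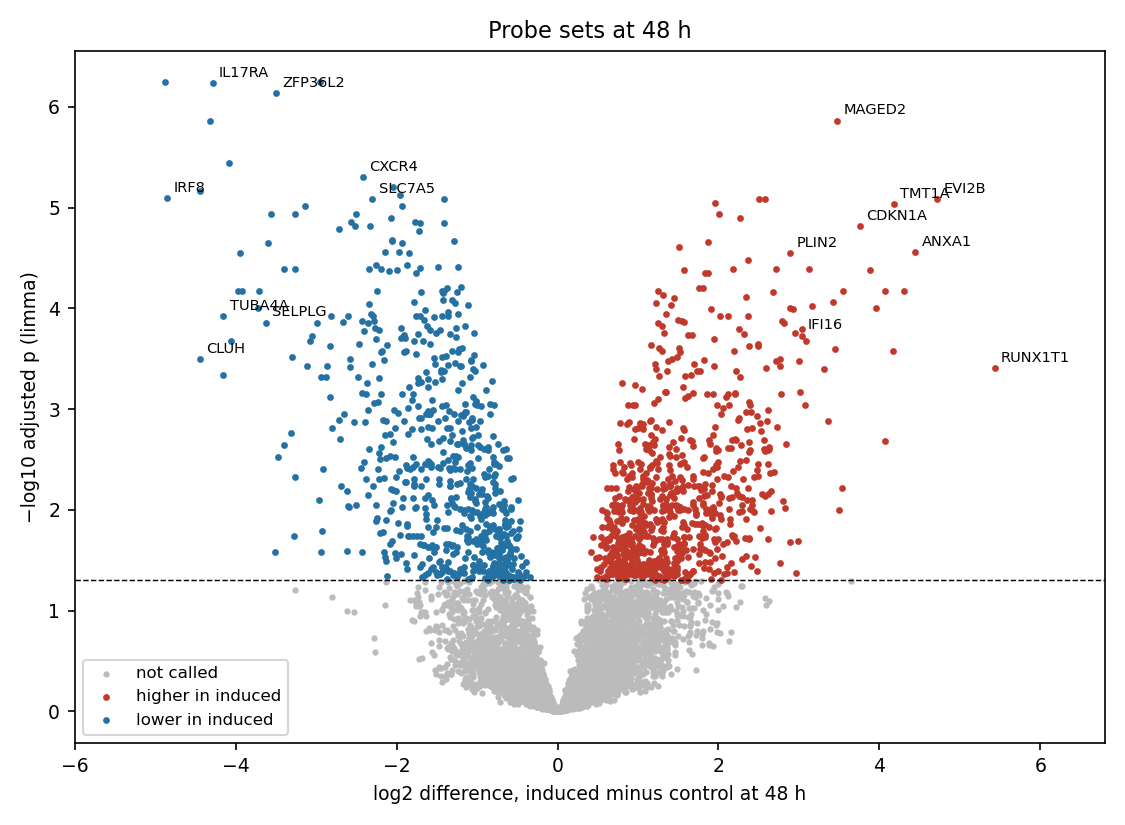
Difference between induced and control cells at 48 h for each tested probe set. The horizontal axis is the fitted log2 difference, induced minus control, and the vertical axis is minus log10 of the limma adjusted p, with the dashed line at 0.05. Red points are the 820 probe sets called higher, blue points the 679 called lower and grey points the rest, and RUNX1T1 lies farthest to the right.

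Among genes measured above the floor on all 4 arrays, 12 were taken by the size of their rise. MAGED2, an X-linked gene of the MAGE family, read 16052 and 17402 in induced and 1278 and 1758 in control cells, an 11.2-fold rise (log2 3.48, SE 0.23, adjusted p = 1.38e-06). Its induced arrays stood clear of all controls. The other tested probe set of MAGED2 had a log2 of 4.16. PLIN2, which coats lipid droplets, read 4611 and 4609.9 against 588.5 and 658.4 (7.41-fold, log2 2.89, SE 0.29, adjusted p = 2.85e-05). IFI16, a nuclear sensor of DNA, read 3447 and 2700.4 against 350.5 and 395.8 (8.19-fold, adjusted p = 0.000187). In neither gene did the groups come near each other. QPRT, an enzyme of NAD synthesis, read 4256 and 2699.5 against 413.0 and 432.5 (8.02-fold, adjusted p = 0.000337), and CD1D, which presents lipid antigens, 1781 and 1823 against 297.4 and 235.7 (6.81-fold, adjusted p = 0.00032). SECISBP2L, GOLGA2, AHDC1, RASA3 and NEU1, the lysosomal sialidase, rose 9.97-fold, 8.53-fold, 7.39-fold, 7.16-fold and 6.85-fold. The rises of 2 more genes taken by size were less secure. COL9A2, a chain of collagen IX, read 2017 and 3428 against 151.3 and 340.4 (11.6-fold, adjusted p = 0.00605), and its call ended without induced replicate 2 (adjusted p = 0.0593) or control replicate 1 (0.0657) and with the floor at the 30th percentile (0.0727) or a generalised log (0.123). MACF1, a linker of actin and microtubules, read 5701 and 6869.6 against 1076 and 601.0 (7.78-fold, adjusted p = 0.0425), and its call ended with any of the 4 arrays left out, with adjusted p-values of 0.0923 to 0.202, and with the floor at the 30th percentile (0.0806) or without the filter (0.172).

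A further set of genes rose from control readings that both lay under the floor, so that only a lower bound can be given. EVI2B, a membrane protein of leukocytes whose gene lies inside NF1, read 3788 and 3379.9 in induced and 40.4 and 6.21 in control cells (at least 26.4-fold, log2 4.72, SE 0.39, adjusted p = 8.23e-06). CDKN1A, which encodes the cyclin-dependent kinase inhibitor p21, read 1584 and 2132 against 50.1 and -792.5 (at least 13.6-fold, log2 3.76, SE 0.35, adjusted p = 1.52e-05). SMARCD3, a subunit of the SWI/SNF chromatin remodeller, read 1774 and 2497 against 18.5 and -142.7 (at least 15.5-fold, adjusted p = 9.98e-05). All 3 were under the floor in both controls of this time and well above it on both induced arrays. TMT1A, a thiol methyltransferase, rose at least 18.1-fold. PRAME, an antigen of many tumours, rose at least 16.7-fold. ARID5B, a DNA-binding protein of the ARID family, rose at least 14.8-fold. LZTS3 and CPN1, a carboxypeptidase subunit, rose at least 7.62-fold and at least 7.02-fold.

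Of the 12 measured falls taken by size the largest was that of TUBA4A, an alpha tubulin, which read 376.9 and 1267 in induced and 13195 and 11456 in control cells (17.8-fold, log2 -4.15, SE 0.51, adjusted p = 0.000119). ZFP36L2, an RNA-binding protein that promotes decay of AU-rich messages, went from a bright signal to 1008 and 1564, against 13707 and 14729 in controls (11.3-fold, log2 -3.50, SE 0.21, adjusted p = 7.27e-07). Both were among the brighter probe sets of control cells and dim in induced cells. The other tested probe set of each was called the same way, with a log2 of -2.82 for TUBA4A and -3.13 for ZFP36L2. MS4A3, a membrane protein of granulocyte and monocyte progenitors, read 244.1 and 223.1 against 2428 and 2046 (9.55-fold, adjusted p = 1.15e-05). SLC1A4, a transporter of neutral amino acids, read 607.1 and 1114 against 5867 and 4958 (6.56-fold, log2 -2.71, adjusted p = 1.65e-05). Its other tested probe set had a log2 of -1.70. DDIT4, a stress-induced inhibitor of mTORC1, read 380.7 and 740.5 against 4875 and 4137 (8.46-fold, adjusted p = 0.000209). In each of these genes the induced replicates differed less from each other than from the controls. KRT9, RRS1, a ribosome assembly factor, GTPBP6 and the tyrosine phosphatase PTPN12 fell 15.2-fold, 7.26-fold, 6.5-fold and 6.36-fold. RASGRP2, an activator of Rap GTPases, RNASE2CP and BCS1L, an assembly factor of respiratory complex III, fell 7.55-fold, 7.11-fold and 6.11-fold, and lost their calls when the 4 arrays were fitted alone (adjusted p = 0.0902, 0.0739 and 0.0814). BCS1L also lost its call without induced replicate 1 (0.0834). The symbol RNASE2CP comes from an annotation that can be old and names a pseudogene, so its probes may read related transcripts.

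A further set of genes went under the floor on both induced arrays. IL17RA, the receptor for interleukin 17A, read -524.0 and -129.1 in induced and 2599 and 2691 in control cells (at least 19.5-fold, adjusted p = 5.8e-07, log2 -4.29 with SE 0.25). CLUH, an RNA-binding protein for messages of mitochondrial proteins, read -383.6 and -43.7 against 2230.1 and 3906 (at least 21.8-fold, adjusted p = 0.000318, log2 -4.44 with SE 0.63). Its control replicates differed from each other more than those of IL17RA. BID, a proapoptotic member of the BCL2 family, read 107.4 and -197.4 against 1401 and 1199 (at least 9.56-fold, adjusted p = 4.1e-05). SELPLG, the P-selectin ligand of leukocytes, read -188.4 and -363.5 against 1814 and 1549.9 (at least 12.4-fold, adjusted p = 0.000139). ATP2A3, a calcium pump, MFNG, a glycosyltransferase of Notch, KLF10, a transcription factor, and CCDC86 fell at least 13.1-fold, at least 13.2-fold, at least 7.11-fold and at least 5.54-fold.

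**Figure D2:**
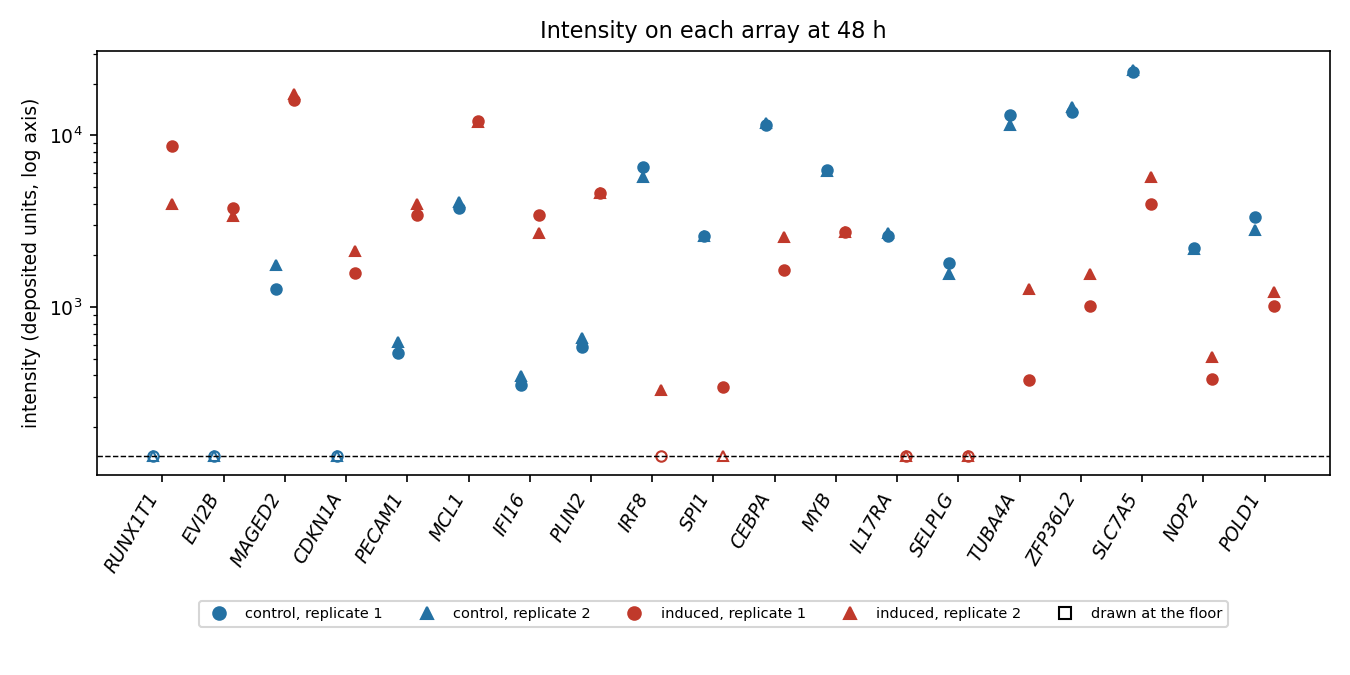
Deposited intensity of 19 genes, named along the horizontal axis, on each of the 4 arrays of 48 h. The vertical axis is logarithmic, red marks are induced and blue marks control arrays, circles are replicate 1 and triangles replicate 2, and open marks on the dashed line are values under the floor. In each gene shown both induced arrays lie on the same side of both controls, as in every called probe set. RUNX1T1, EVI2B and CDKN1A lie at the floor in both controls.

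Of 26 tested transcription factors of the myeloid lineage 10 fell and 0 rose, with a median log2 of -0.58 against 0.10 over all genes. Over all 5606 genes 11.4% rose and 8.94% fell, and these shares stand beside the count of each list below. IRF8, a factor of the monocyte lineage, read -101.9 and 329.5 in induced and 6514 and 5729.9 in control cells (at least 28.9-fold, adjusted p = 8.06e-06). SPI1, which encodes PU.1, read 340.8 and -157.6 against 2602 and 2608 (at least 12.1-fold, adjusted p = 2.25e-05). CEBPA, the main factor of granulocytic commitment, read 1647 and 2548 against 11538 and 11770 (5.69-fold, adjusted p = 1.15e-05). These 3 factors were bright in controls, and IRF8 and SPI1 had 1 induced array under the floor. In bulk RNA, fewer cells that express a gene and less RNA per cell cannot be told apart. CEBPB fell 3.69-fold, the vitamin D receptor VDR 4.08-fold, the homeobox factor HHEX 3.43-fold and MYB 2.29-fold. ID2, CEBPG and NFE2 were the other members that fell, each losing its call with some array left out. The remaining 16 did not pass, among them GFI1 (log2 -0.14), RARA (log2 -0.01), CEBPE (log2 -1.05) and MEIS1 (log2 1.45).

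Several proteins that work with RUNX1 or bind the fusion also changed. Of 18 tested genes of this group 4 rose and 4 fell, with a median log2 of -0.02, and RUNX1T1 is 1 of those that rose. LYL1, a basic helix-loop-helix factor of blood progenitors, read 1678 and 1890.5 in induced and 7226 and 7413 in control cells (4.11-fold, adjusted p = 6.32e-06). CBFA2T3, the ETO relative of blood cells, read -204.6 and -158.3 against 541.0 and 942.0 (at least 5.26-fold, adjusted p = 0.00136). CBFB, the subunit shared by the RUNX proteins, read 7338 and 7183 against 11117 and 12202 (1.6-fold, adjusted p = 0.00257). All 3 were lower on both induced arrays than on either control, as was every probe set that fell. RUNX3 fell 2.06-fold, but not with any 1 array left out. LMO2, a bridging protein of the same complex, rose 2.09-fold (lost without induced replicate 1 or control replicate 1), the acetyltransferase gene EP300 3.45-fold (lost without induced replicate 1 or control replicate 2 and in a fit of the 4 arrays alone) and the deacetylase gene HDAC1 1.72-fold (adjusted p = 0.11 after median centring). RUNX2 (log2 -0.49), TCF3 (log2 -0.27), TCF12 (log2 0.17) and TAL1 (log2 1.12) did not pass the test.

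Proteins of the azurophil granule, which are made at the promyelocyte stage, fell in part. Of 13 tested genes 7 fell and 0 rose, with a median log2 of -0.78. CTSG (cathepsin G) read 1037 and 1228 in induced and 5981 and 6968 in control cells (5.72-fold, adjusted p = 1.52e-05). CST7 (cystatin F) read 1542 and 2240.5 against 9539 and 9101 (5.01-fold, adjusted p = 1.52e-05), and PRTN3 (proteinase 3) 945.5 and 1138 against 2947 and 3546 (3.12-fold, adjusted p = 0.00491). The groups lay well apart in all 3. LYZ, the lysozyme gene, read 6427 and 7927 against 5357 and 4184 and did not pass (log2 0.59, adjusted p = 0.34), nor did ELANE (log2 -0.74, adjusted p = 0.0518). Among 12 late granule and NADPH oxidase genes 2 fell, the GTPase RAC2 (3.43-fold) and the integrin chain ITGB2 (3.16-fold), and 2 rose, ALOX5AP and S100A9. The 2 rises were lost with any 1 array left out. Of 13 monocyte and macrophage markers LST1 (at least 16.6-fold) and AIF1 (2.19-fold) fell and ITGAX rose (at least 4.7-fold; adjusted p = 0.0529 without induced replicate 2).

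**Figure D3:**
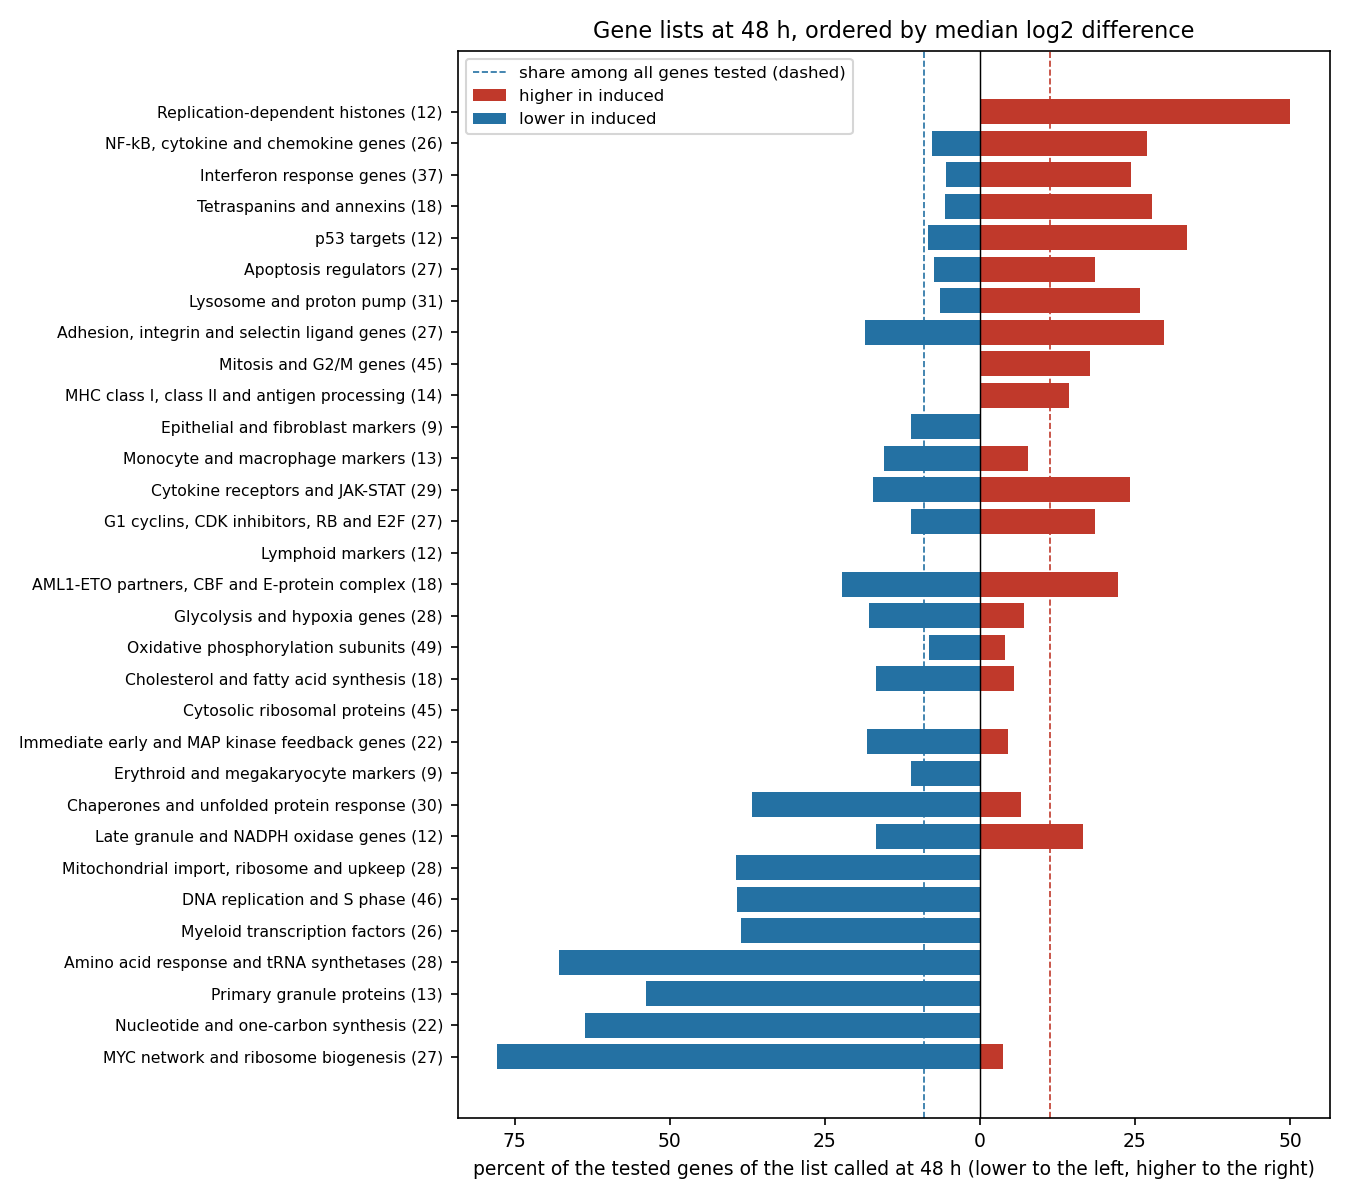
Share of the tested genes of each list that were called at 48 h, lower to the left in blue and higher to the right in red, in percent. Lists are ordered by their median log2 difference, with the number of tested genes in brackets, and dashed lines mark the shares among all genes, 8.94% lower and 11.4% higher. The lists of MYC network and ribosome biogenesis, amino acid and nucleotide genes extend farthest to the left.

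Receptors and their signalling proteins went both ways. Of 29 tested genes of cytokine receptors and the JAK-STAT pathway 7 rose and 5 fell, with a median log2 of 0.10 (2 rose and 4 fell after median centring, with a median of -0.08). Without induced replicate 1 or 2 the rises were 4 or 3, and without control replicate 1 or 2 they were 2 or 4; the falls were 3 to 4. Besides IL17RA, the tumour necrosis factor receptor TNFRSF1B read 614.5 and 491.3 in induced and 3389 and 3099.7 in control cells (5.9-fold lower, adjusted p = 1.4e-05). The chains of the interferon gamma receptor moved apart. IFNGR2 read 526.8 and 862.2 against 3153 and 3141 (4.67-fold lower, adjusted p = 0.000166). IFNGR1 read 2674 and 2358 against 954.1 and 1305 (2.25-fold higher, adjusted p = 0.0054, and at most 0.0666 after median centring or without control replicate 1). TGFBR2, a receptor for TGF-beta, read 2565 and 2782 against 354.2 and 613.2 (5.73-fold higher, adjusted p = 0.00138). The kinase JAK1 rose 1.9-fold, and its call ended after median centring and without induced replicate 2. CSF3R, which binds the growth factor G-CSF, rose 1.97-fold but not with any 1 array left out. FLT3 (log2 -0.07), JAK2 (log2 -0.39) and STAT5A (log2 0.10) did not pass the test.

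Adhesion molecules changed in both directions. Of 27 tested adhesion genes 8 rose and 5 fell, with a median log2 of 0.36, and the counts without 1 array were 7 to 8 and 5 to 6. PECAM1, an adhesion molecule of leukocytes, platelets and endothelium, read 3430.3 and 3997 in induced and 538.2 and 622.2 in control cells (6.4-fold, adjusted p = 6.88e-05). ITGB1, the beta chain of fibronectin and collagen receptors, read 10856 and 8344 against 3334 and 3182 (2.92-fold higher, adjusted p = 0.000134). ITGB2, the beta chain of leukocyte integrins, read 3281 and 3731 against 12289 and 9960 (3.16-fold lower, adjusted p = 0.000131). As in every called probe set, the groups did not overlap in these 3 genes. JUP (plakoglobin) rose 4.59-fold, the guidance factor SEMA3A at least 10.7-fold and ICAM1 at least 5.06-fold. The chemokine receptor CXCR4 read 834.5 and 937.7 against 4647 and 4775 (5.33-fold lower, adjusted p = 4.98e-06). The sialomucin SPN (CD43) fell 2.21-fold and the hyaluronan receptor CD44 1.99-fold. Of 18 tetraspanin, annexin and S100 genes 5 rose and 1 fell, with a median log2 of 0.53 (3 and 1 after median centring, without either induced replicate and without control replicate 2). ANXA1, a phospholipid-binding regulator of inflammation, read 4071 and 4481 against 283.6 and -2.34 (at least 21.8-fold). The leukocyte tetraspanin CD53 read 3200.4 and 2439 against 105.0 and 146.0 (at least 19.9-fold). S100A11 was the member that fell (3.39-fold).

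Most tested genes of the list that joins MYC and ribosome assembly fell. Of 27 tested genes of the MYC network and ribosome biogenesis 21 fell and 1 rose, against 8.94% and 11.4% of all genes, with a median log2 of -1.25. Left out in turn, the 4 arrays gave 12 to 16 falls, the fewest without control replicate 2. MYC itself, the transcription factor that drives cell growth, read 1651 and 2428 in induced and 10484 and 9941 in control cells (5.1-fold, adjusted p = 0.000139). NOP2, a ribosomal RNA methyltransferase, read 382.7 and 515.0 against 2211 and 2172 (4.94-fold, adjusted p = 0.00036). IMP4, a part of the small subunit processome, read 568.8 and 585.4 against 2527 and 2521 (4.37-fold, adjusted p = 0.00308). The groups did not overlap in these genes, which holds for every called probe set. UBTF, a factor of RNA polymerase I, fell 3.83-fold, the nucleolar chaperone NOLC1 3.0-fold, fibrillarin FBL 2.11-fold, the helicase DDX21 2.05-fold and PES1 2.27-fold. The member that rose was MXI1, which encodes an antagonist of MYC (2.2-fold, adjusted p = 0.00228). Among members that did not pass were MAX, the partner of MYC (log2 -0.42), and NPM1 (log2 -0.07). Of 45 ribosomal protein genes limma called 0, with 0 at an unadjusted p under 0.05, log2 values of -0.52 to 0.05 and a median of -0.14.

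Enzymes of nucleotide and one-carbon synthesis fell as well. Of 22 tested genes 14 fell and 0 rose, with a median log2 of -1.01 (6 to 11 falls with 1 array left out, the fewest without control replicate 1, and 9 in a fit of the 4 arrays alone). PPAT, which starts purine synthesis, read 225.0 and 359.5 in induced and 1372 and 1295 in control cells (4.69-fold, adjusted p = 0.000847). ATIC, which completes it, read 1523 and 1632 against 5787 and 6257 (3.82-fold, adjusted p = 2.25e-05). Both enzymes were lower on both induced arrays, as was every probe set that fell. IMPDH1, which leads to guanine nucleotides, fell 2.48-fold, and the phosphoribosyl pyrophosphate synthetase PRPS2 2.48-fold. HPRT1 (log2 -0.42) and APRT (log2 -0.87) of the salvage pathway did not pass, and CAD (log2 -0.43), which starts pyrimidine synthesis, did not either.

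Amino acid transporters, synthetic enzymes and tRNA synthetases also fell. Of 28 tested genes 19 fell and 0 rose, with a median log2 of -0.76 (13 to 15 falls with 1 array left out). SLC7A5, the light chain of a leucine transporter, was among the brightest genes of control cells and read 4008 and 5746 in induced against 23258 and 24035 in control cells (4.93-fold, adjusted p = 8.23e-06). SLC3A2, its heavy chain, read 3784 and 3805 against 12982 and 12925 (3.41-fold, adjusted p = 1.4e-05). Both chains fell. The replicates of SLC3A2 lay close together, while the induced replicates of SLC7A5 lay farther apart. The glutamine transporter SLC1A5 fell 2.45-fold, asparagine synthetase ASNS 3.06-fold, the cystathionine lyase CTH at least 5.98-fold and the serine synthesis enzyme PHGDH 1.7-fold. Of the tRNA synthetases AARS1 fell 2.57-fold, IARS1 2.41-fold and VARS1 2.36-fold, which charge alanine, isoleucine and valine. ATF4, the transcription factor of the amino acid response (log2 -0.29), and its target DDIT3 (log2 0.00) did not pass the test.

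Because these 3 lists fell together, the promoters of their members were searched for short motifs. A window of 250 bases before and 50 after the start was taken from RefSeq (GRCh38.p14) for 4599 of the 5606 genes. The letters CACGTG, the E-box bound by MYC with MAX among other factors, read the same on both strands. They occurred in 15.6% of the 403 windows of genes that fell and in 7.34% of the 531 windows of genes that rose. Among the 3665 windows of genes not called the share was 9.82%. It was 7.43% over all 27305 windows searched, the first listed for each gene among 35116. In the MYC network and ribosome biogenesis list 12 of 21 windows held these letters, in the nucleotide list 5 of 19 and in the amino acid list 3 of 23. Over all 4599 tested genes with a window the share was 10%. Among the members of the 3 lists that fell, the letters were in 9 of 15, 5 of 14 and 2 of 16 windows in turn. Of the other lists reported, that of lysosome and proton pump genes held them in 7 of 22 windows, in 0 of the 2 of its genes that fell, and the rest in 0 to 5 windows each. The RUNX core letters TGTGGT, on either strand, occurred in 7.72% of windows of genes that rose, 10.4% of those that fell, 10.3% of those not called and 13.1% of all windows. Its variant TGCGGT occurred in 7.53%, 10.7%, 9.77% and 7.11%. A match is a description and not a site, and no match says only that the letters are not in this window. Motifs of other factors, among them PU.1, C/EBP, ATF4 and E2F, were searched too and their shares are not given here. No share of any motif was tested. The 250 bases before the start of 4 genes of these lists are printed to show where the E-box letters lie. They were chosen after the letters were known, and CACGTG is in capitals. IMP4 is read from chr2:130342647-130342896 on the plus strand, PPAT from chr4:56435616-56435865 on the minus strand, ATIC from chr2:215311809-215312058 on the plus strand and SLC7A5 from chr16:87869508-87869757 on the minus strand.
IMP4: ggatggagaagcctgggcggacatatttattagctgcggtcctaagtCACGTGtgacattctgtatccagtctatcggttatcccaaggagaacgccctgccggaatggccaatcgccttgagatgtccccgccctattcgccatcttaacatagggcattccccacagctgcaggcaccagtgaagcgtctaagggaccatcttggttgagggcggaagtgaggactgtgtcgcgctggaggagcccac
PPAT: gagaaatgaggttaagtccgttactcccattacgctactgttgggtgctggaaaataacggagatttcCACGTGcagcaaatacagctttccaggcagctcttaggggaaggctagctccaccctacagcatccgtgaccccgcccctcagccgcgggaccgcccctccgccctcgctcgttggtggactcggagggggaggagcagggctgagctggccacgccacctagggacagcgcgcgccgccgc
ATIC: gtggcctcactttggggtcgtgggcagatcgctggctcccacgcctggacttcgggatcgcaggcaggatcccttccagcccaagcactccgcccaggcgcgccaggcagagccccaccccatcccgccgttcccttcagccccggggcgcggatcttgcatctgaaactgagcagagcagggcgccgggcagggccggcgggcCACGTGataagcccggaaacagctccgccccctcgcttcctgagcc
SLC7A5: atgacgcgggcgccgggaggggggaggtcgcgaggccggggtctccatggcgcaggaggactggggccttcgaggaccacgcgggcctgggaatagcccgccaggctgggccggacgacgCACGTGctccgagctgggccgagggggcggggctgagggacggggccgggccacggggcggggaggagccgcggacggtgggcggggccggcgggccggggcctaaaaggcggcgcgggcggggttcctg

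Counted from the start, the letters begin at -203 in IMP4, -182 in PPAT, -46 in ATIC and -130 in SLC7A5, and IMP4 and ATIC each hold them again, at 15 and 29. All 4 genes fell at 48 h, with the values given above.

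Some genes of chaperones and of mitochondrial import and translation fell. Of 30 tested chaperone and unfolded protein response genes 11 fell and 2 rose, with a median log2 of -0.30 (5 falls without the variance trend, 7 without the filter on low values and 3 to 5 with 1 array left out, the fewest without induced replicate 1). The rises were 0 without the filter, 0 without either induced replicate or control replicate 1, and 1 without control replicate 2 or after median centring. The mitochondrial chaperone TRAP1 fell 3.26-fold, XBP1, a transcription factor of the unfolded protein response, 2.05-fold and the chaperonin HSPE1 2.08-fold. HSPA8 (log2 -0.08) and HSPD1 (log2 -0.09) did not pass. Of 28 genes of mitochondrial import, translation and upkeep 11 fell and 0 rose, with a median log2 of -0.55 (6 falls without the filter or the trend and 4 to 6 with 1 array left out, the fewest without control replicate 2). Among them the import pore TOMM40 read 2692 and 2632 in induced and 7207 and 7093 in control cells (2.69-fold, adjusted p = 8.37e-05). Of 49 subunits of oxidative phosphorylation 4 fell and 2 rose, beside 8.94% and 11.4% of all genes, with a median log2 of -0.04 (1 and 0 after median centring and without control replicate 1, and 2 to 3 falls with 0 to 1 rises with another array left out). Of 28 glycolysis and hypoxia genes 5 fell and 2 rose, with a median of -0.02 (2 falls without induced replicate 1, 1 without control replicate 1, 3 without control replicate 2 or after median centring and 2 in a fit of the 4 arrays alone). Glucose phosphate isomerase GPI fell 2.66-fold and the mitophagy receptor BNIP3L rose 4.04-fold, while GAPDH (log2 -0.02) and LDHA (log2 -0.31) did not pass. Of 18 cholesterol and fatty acid genes 3 fell and 1 rose, the rise being lost with any 1 array left out. The fatty acid synthase FASN read 1763 and 3322 against 11763 and 11456 (4.8-fold lower, adjusted p = 0.000156), and the desaturase SCD fell at least 6.99-fold.

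Genes of DNA replication fell in part and none rose. Of 46 tested replication genes 18 fell and 0 rose, with a median log2 of -0.58 (11 to 15 falls with 1 array left out, 11 without induced replicate 1 and without control replicate 1). MCM4, a subunit of the replicative helicase, read 1359 and 1085 in induced and 5399 and 4482 in control cells (4.05-fold, adjusted p = 0.00156). PCNA, the sliding clamp, read 4154 and 4406 against 7764 and 8932 (1.95-fold, adjusted p = 0.00237), and CDC6, a licensing factor, 483.6 and 584.2 against 1713 and 1300.2 (2.81-fold, adjusted p = 0.00375). The helicase subunits MCM2, MCM3 and MCM7 fell 1.73-fold, 1.66-fold and 2.06-fold. The ribonucleotide reductase subunits RRM1 (log2 -0.15) and RRM2 (log2 -0.39), TYMS (log2 -0.30) and TOP2A (log2 -0.03) did not pass.

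Of 45 tested genes of mitosis and G2/M 8 rose and 0 fell, with a median log2 of 0.27. The count moved with the processing. After median centring 0 rose and the median was 0.09, and after quantile normalization 9 rose with a median of 0.24. Without the filter 4 rose and without the variance trend 3. With 1 array left out 0 to 2 rose, 0 without control replicate 1, and without induced replicate 1 there was 1 rise and 1 fall. AURKA, a kinase of the spindle poles, read 3009.7 and 3172 in induced and 1577 and 1702 in control cells (1.89-fold, adjusted p = 0.0345, and 0.196 at most with an array left out or under another setting). PLK1, a mitotic kinase, read 10298 and 8993 against 6324 and 6798 (1.47-fold, adjusted p = 0.00993, and at most 0.329). CDK1 (log2 0.35), CCNB1 (log2 0.26), MKI67 (log2 0.29) and AURKB (log2 -0.27) did not pass.

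Genes of G1 control changed in both directions. Of 27 tested genes of G1 cyclins, kinase inhibitors, RB and E2F proteins 5 rose and 3 fell, beside 11.4% and 8.94% of all genes. The median log2 was 0.06 as deposited, -0.07 after quantile normalization and -0.12 after median centring. This list had 2 rises without induced replicate 1 and 3 without either control replicate. Besides CDKN1A, CDKN1B, which encodes p27, read 2950.3 and 2472 in induced and 776.7 and 751.6 in control cells (3.53-fold, adjusted p = 0.000326). BTG1, an antiproliferative factor, rose 2.47-fold and RB1 2.19-fold, each losing its call with either of 2 arrays left out, and RB1 also in a fit of the 4 arrays alone. CDKN2D rose 3.47-fold, but not with any 1 array left out. The cyclins CCND1 and CCND2 fell 3.08-fold and 3.03-fold, and their kinase CDK4, which read 4084 and 4706 against 7583 and 7764, fell 1.75-fold. CCNE1 (log2 0.79), E2F1 (log2 -0.41) and CDK2 (log2 -0.13) did not pass.

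Some of the histone genes rose. Of 12 tested replication-dependent histone genes 6 rose and 0 fell, with a median log2 of 1.17. The count was 3 after median centring, 1 in a fit of the 4 arrays alone and 1 to 4 with 1 array left out, the fewest without induced replicate 1. H2BC12 read 3461 and 2707 in induced and 975.4 and 1115 in control cells (2.93-fold, adjusted p = 0.00646, and 0.062 at most with an array left out). H2BC21 read 1122 and 1421 against 72.9 and 310.9 (at least 6.15-fold, adjusted p = 0.00257, and 0.0551 in a fit of the 4 arrays alone). As in every called probe set, the groups did not overlap in either gene. Probe sets of histone genes may read near-identical copies, so single members are uncertain. Per the labels the cDNA was primed with oligo-dT, and these messages mostly lack a poly(A) tail. The part of priming in this result was not tested.

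Genes of the interferon response rose in part. Of 37 tested genes 9 rose and 2 fell, with a median log2 of 0.57. IRF7, a regulator of type I interferon genes, read 1059 and 961.9 in induced and 178.6 and 191.6 in control cells (5.45-fold, adjusted p = 0.00468). IRF9, a subunit of the factor that interferon activates, read 2183 and 2356 against 67.7 and 135.0 (at least 16.7-fold, adjusted p = 0.00208, and 0.181 at most with the floor at the 30th percentile or on a generalised log scale). OASL and IFIT3 rose at least 6.08-fold and at least 5.56-fold. In all 4 genes both induced arrays were above both controls, as in every probe set that rose. The membrane proteins IFITM2 and IFITM3 went the other way, with IFITM2 at 6144 and 5278 against 12779 and 14288 (2.37-fold lower, adjusted p = 6.9e-05). MX2 (log2 -0.29), OAS2 (log2 0.39) and IRF1 (log2 0.57) did not pass. Without induced replicate 1 the list had 5 rises, and without control replicate 2 it had 6.

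Of 26 tested NF-kB, cytokine and chemokine genes 7 rose and 2 fell, with a median log2 of 0.73, and the falls were 0 without control replicate 1 and in a fit of the 4 arrays alone, and 1 without induced replicate 1 or control replicate 2. The chemokine CCL5 read 11117 and 8649 in induced and 3312 and 2524 in control cells (3.39-fold, adjusted p = 6.29e-05), and CXCL8 (interleukin 8) 1109 and 1971 against 264.0 and 323.1 (5.06-fold, adjusted p = 0.0032). RELB, a subunit of NF-kB, read 2296 and 2414 against 462.9 and 521.5 (4.79-fold, adjusted p = 0.000159). The urokinase gene PLAU rose 2.88-fold. NFKBIA (log2 -0.65), NFKB1 (log2 -0.18), RELA (log2 0.28) and TNF (log2 -0.42) did not pass.

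Among 27 apoptosis regulators 5 rose and 2 fell, beside 11.4% and 8.94% of all genes, with a median log2 of 0.47. There were 7 rises with the floor at the 50th percentile, 10 with all 8 controls, and 1 fall in a fit of the 4 arrays alone. MCL1, a survival protein, read 12137 and 12036 in induced and 3770.5 and 4081 in control cells (3.08-fold, adjusted p = 0.000186), and CASP8, an initiator caspase, rose 2.97-fold. BID and the death receptor TNFRSF10B (at least 9.89-fold, adjusted p = 0.0652 in a fit of the 4 arrays alone) were the members that fell. BCL2 (log2 -0.17), BCL2L1 (log2 -0.52) and BAX (log2 0.04) did not pass. Of 12 p53 targets 4 rose, CDKN1A, PMAIP1, PPM1D and XPC, and TNFRSF10B fell. The rises of PPM1D and XPC ended after median centring and with any 1 array left out, and that of PMAIP1 ended without induced replicate 2, control replicate 1 or control replicate 2 (adjusted p of 0.066 at most). The list then had 2 rises without induced replicate 1 and 1 without any other array. GADD45A (log2 -0.01), DDB2 (log2 -0.09) and CCNG1 (log2 0.65) did not pass.

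Of 31 lysosomal and proton pump genes 8 rose and 2 fell, with a median log2 of 0.47, but after median centring 2 rose and 2 fell, and without induced replicate 1 or control replicate 2 there were 3 rises and 1 fall. ATP6V1B2, a proton pump subunit, read 9119.7 and 9973 in induced and 5086 and 3568 in control cells (2.24-fold, adjusted p = 0.00127). Of 22 immediate early and MAP kinase feedback genes 1 rose and 4 fell (2 fell after median centring, with the floor at the 50th percentile, in a fit of the 4 arrays alone and with any 1 array left out). The rises were 3 without induced replicate 2 and with the floor at the 50th percentile, 2 with a stricter filter and 4 with all 8 controls. ZFP36 rose and read 2057 and 1802 against 712.1 and 423.1 (3.51-fold, adjusted p = 0.00308), opposite to its relative ZFP36L2, while FOS (log2 1.53) and EGR1 (log2 -0.74) did not pass. Of 14 genes of MHC molecules and antigen processing 2 rose, beside 11.4% of all genes. They were the peptide-loading factor TAPBP (1.94-fold) and HLA-DPA1 (at least 2.88-fold). Among markers of other cells limma called 0 of 12 lymphoid (0 at an unadjusted p under 0.05), 1 of 9 erythroid and megakaryocyte (TFRC, lower) and 1 of 9 epithelial and fibroblast genes (COL1A1, lower). Summed over the lymphoid list the arrays read 8144 and 7871 in induced and 9101 and 8044 in control cells. COL1A1 read 391.2 and 739.6 against 2376 and 2336 (4.38-fold, adjusted p = 0.032), and its call ended with any 1 array left out. That of TFRC ended without induced replicate 1 or either control replicate, without the filter and with all 8 controls (adjusted p of 0.208 at most).

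**Figure D4:**
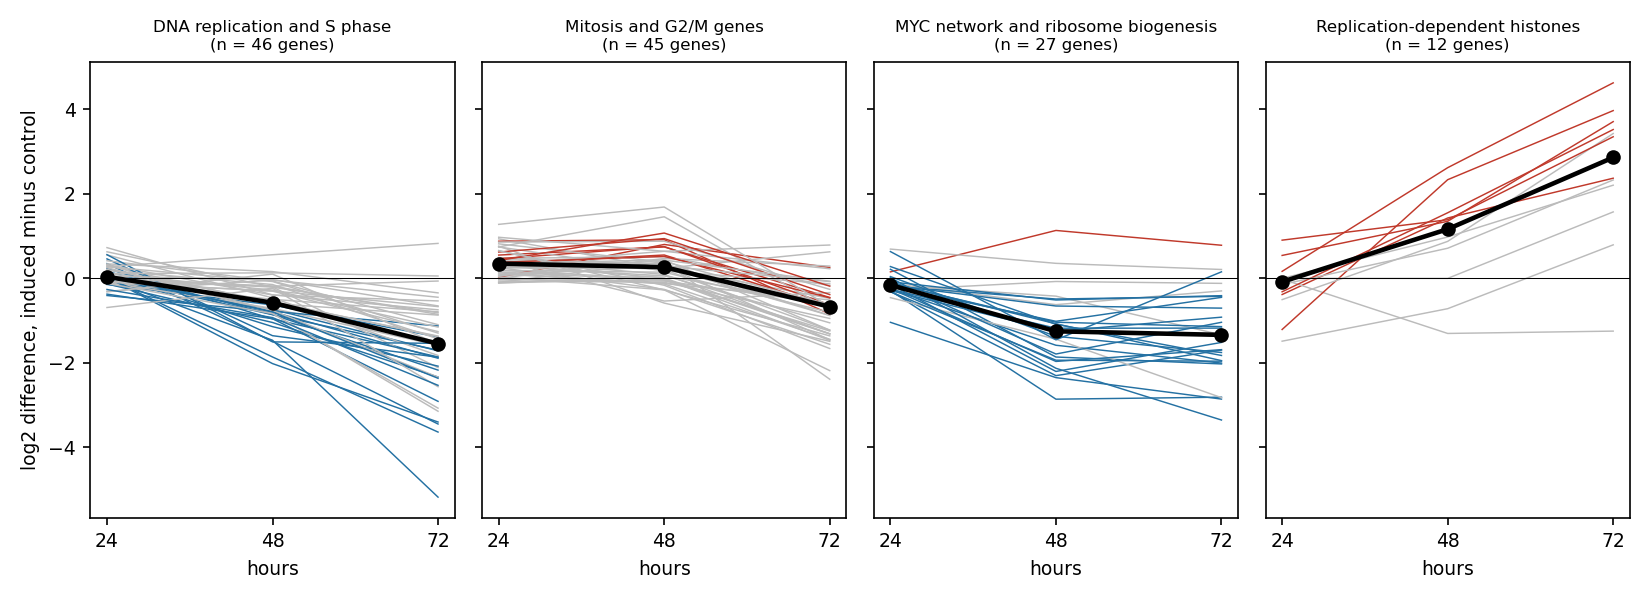
Effect of induction at 24, 48 and 72 h in 4 gene lists, of replication, mitosis, MYC network with ribosome biogenesis, and histone genes. The horizontal axis is the time in hours. The vertical axis is the fitted log2 difference between induced and control cells of the same time, each thin line is a gene, red or blue if it was called higher or lower at 48 h and grey if it was not, and the black line is the median. The replication list went from a median of -0.58 at 48 h to -1.55 at 72 h, and the mitosis list from 0.27 to -0.67.

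The induced cells of 48 h were next set against their neighbours in time, which used other arrays. At 24 h limma called 0 of 7824 probe sets, with 397 at an unadjusted p under 0.05. RUNX1T1 itself read 1592 and -47.5 in induced and 8.31 and -45.9 in control cells at 24 h. Replicate 2 of the induced cells was thus under the floor, and the effect (log2 1.78) did not pass. The difference between the RUNX1T1 effects at 48 and 24 h did not pass either (log2 3.66, limma adjusted p = 0.0907), and its size is set in part by the floor. Among the 820 probe sets that rose at 48 h the median log2 was 0.21 at 24 h, 1.34 at 48 h and 1.36 at 72 h. Among the 679 that fell it was -0.11, -1.33 and -1.57. Since the members were chosen for their size at 48 h, the values at 24 and 72 h describe them and the values at 48 h are fixed by that choice. At 72 h 646 of the 820 were called higher and 573 of the 679 lower, beside 16.1% and 13.9% of all tested probe sets, and 97.1% and 97.8% had the same sign.

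The difference between the effects at 48 and 24 h passed the test for 382 probe sets (4.88%), 241 in the negative (3.08%) and 141 in the positive direction (1.8%). Without induced replicate 1 or 2 the count was 195 or 277, without control replicate 1 or 2 it was 185 or 170, and after median centring it was 127. Of the 382, 378 had the larger effect at 48 h. IL17RA differed by a fitted log2 of -3.55 (adjusted p = 0.00051), with an effect of -0.74 at 24 h and -4.29 at 48 h. Both of its induced arrays of 48 h lay at the floor, so this size is set by the floor. MAGED2 differed by 3.17 (adjusted p = 0.00051) and read 1795 and 1199 in induced cells at 24 h. ZFP36L2 differed by -2.70 (adjusted p = 0.000906). EXOSC7, a subunit of the RNA exosome, read 1249 and 1359 in induced and 5020 and 5103 in control cells at 48 h and differed between the times by -1.92 (adjusted p = 0.00105). PSMG1, an assembly chaperone of the proteasome, read 130.7 and 291.9 against 2084 and 2662 at 48 h and differed by -3.57 (adjusted p = 0.00146), with 1 of its induced arrays of 48 h at the floor. CXCR4 differed by -2.01 (adjusted p = 0.00146). In these 6 genes the effect at 24 h was between -0.80 and 0.31 and did not pass. For CDKN1A all 4 arrays of 24 h and both controls of 48 h lay under the floor, so the effect at 24 h was not measurable and the fitted difference (3.76, adjusted p = 0.0015) is set by the floor.

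Between 48 and 72 h the effect changed for 38 probe sets (0.486%), 31 of them in the negative (0.396%) and 7 in the positive direction (0.0895%), with 765 at an unadjusted p under 0.05. This count was 3 after median centring, 85 after quantile normalization, 87 without the filter, 120 with the floor at the median, 17 or 10 without induced replicate 1 or 2 and 4 without either control replicate. In 37 of the 38 the effect was larger at 72 h. POLD1, the catalytic subunit of DNA polymerase delta, read 1012 and 1225 in induced and 3339 and 2828 in control cells at 48 h and -265.3 and -656.9 against 4810.3 and 5024 at 72 h. Both induced arrays of 72 h lay at the floor, so the fitted difference of log2 -3.72 (SE 0.27, adjusted p = 2.49e-05) is set by the floor. KIF2C, a microtubule-depolymerising kinesin, read 4679 and 4918 against 4185 and 3639 at 48 h and 1595 and 1583 against 4226 and 4486 at 72 h, a difference of -1.75 (adjusted p = 0.00288). AURKB, the kinase of the chromosomal passenger complex, differed by -1.91 (adjusted p = 0.00788). These 2 mitotic genes did not pass at 48 h and fell at 72 h. TMC6 and the coronin CORO1A fell further, with differences of -1.94 and -2.00 (adjusted p = 0.00972 and 0.0133). The chemokine CCL20 read 201.0 and 237.9 at 48 h and 3061 and 2273 at 72 h in induced cells, a difference of 3.59 (adjusted p = 0.0133), with the controls of both times at the floor. After median centring the calls of KIF2C (adjusted p = 0.0864), AURKB (0.0791), TMC6 (0.0864) and CORO1A (0.144) ended. The call of CORO1A also ended without the variance trend (0.0525), and that of CCL20 on a generalised log scale (0.181). Those of AURKB and TMC6 ended without control replicate 2 (both 0.0529), and that of CCL20 with either control replicate left out (0.0794 and 0.059) and with the floor at the 30th percentile (0.373). That of CORO1A ended without induced replicate 2 (0.0774), control replicate 1 (0.0794) or control replicate 2 (0.0717).

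In the mitosis list 0 of 45 genes were called at 24 h, with a median log2 of 0.35, against 8 higher at 48 h and 24 lower at 72 h, where the median was -0.67. The difference between 72 and 48 h passed for 6 members, all in the negative direction, beside 0.446% of all genes. This count was 0 after median centring, 2 without the variance trend, 4 with a replicate block and 1 to 4 with 1 array left out, the fewest without control replicate 2. It was 14 after quantile normalization and 13 with the floor at the 50th percentile. In the replication list 38 of 46 genes were lower and 1 was higher at 72 h, beside 14.3% and 16.9% of all genes. Of all probe sets called at both times 6 had opposite directions, and 5 of them carry 1 symbol, AURKA, ZWINT, PLK1, APOBEC3B and NDC80. The first 3 are genes of mitosis, NDC80 builds the outer kinetochore and APOBEC3B is a cytidine deaminase. The difference itself passed for PLK1 (log2 -1.22, adjusted p = 0.0133), NDC80 (-1.51, 0.031) and APOBEC3B (-2.03, 0.0466), and not for AURKA (-1.76, 0.0655) or ZWINT (-0.98, 0.0636). After median centring all 5 lost their rise at 48 h. AURKA, ZWINT and APOBEC3B lost it with any 1 array left out, and PLK1 and NDC80 without induced replicate 1 or control replicate 1. Without the variance trend AURKA, ZWINT and PLK1 lost it, and without the filter AURKA and APOBEC3B. The adjusted p was 0.513 at most. The differences of PLK1, NDC80 and APOBEC3B also ended after median centring, without the variance trend and without induced replicate 1 or either control replicate, those of NDC80 and APOBEC3B without induced replicate 2, and that of APOBEC3B without the filter and with the floor at the 30th percentile (0.196 at most). The median of the histone list was 1.17 at 48 h and 2.86 at 72 h, where 10 of 12 genes were higher.

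The control arrays of 48 h were also compared with the other controls. Against the mean of the control cells at 0, 24 and 72 h limma called 0 of 7824 probe sets, with 273 at an unadjusted p under 0.05 and a smallest adjusted p of 0.0858. Without the filter on low values 12 probe sets were called, without the variance trend 4, with the floor at the 30th or 50th percentile 1 and without control replicate 2 it was 2. Both induced arrays of 48 h lay beyond all 6 other control arrays as well, in the direction of the call, for 740 of the 820 probe sets that rose (90.2%) and 620 of the 679 that fell (91.3%). Of all 7824 tested probe sets 1468 (18.8%) had both induced arrays above those 6 and 1025 (13.1%) below them. The called probe sets were chosen on these same 2 induced arrays. Their higher shares follow in part from that choice and are a description. MAGED2 read 1059.9 to 2323 and ZFP36L2 13940 to 18732 on those 6 arrays. RASA3, which rose against the controls of 48 h, read up to 3881 on another control array, below its induced values of 6946 and 6569. KRT9 read 5155 and 3602 on the controls of 48 h and 777.7 to 4691 on the 6 others. Its log2 effect was -3.92 against the controls of 48 h and -2.96 against all 8 controls. SMARCD3 read 18.5 and -142.7 on the controls of 48 h and 52.8 to 510.8 on the 6 others. With all 8 controls in place of the 2 of 48 h, 2029 probe sets were called.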

How the data were processed

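Per the labels' protocols, total RNA was primed with a T7-linked oligo-dT, transcribed to labelled cRNA and hybridised to U95Av2 arrays. The deposited values are linear probe set intensities, scaled per array by the authors, with negative values left in. Which software summarised the probes was not given in the sources used here. Values under the 40th percentile of all values (135.61) were raised to it and log2 was taken. Probe sets over the median of all values (292.74) on at least 2 of 16 arrays were kept, and the 67 control probe sets were left out. limma 3.58.1 in R 4.3.3 (lmFit, eBayes with trend) fitted 1 mean per group over 16 arrays, with Benjamini-Hochberg adjustment over all 7824 tested probe sets. The script was tested on simulated data.

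Symbols came from the platform annotation, which can be old. Of the tested probe sets 6878 had 1 symbol, 385 several and 561 none, and only the first kind is named. Each gene was represented by the tested probe set of highest mean log2, so its fold and rank belong to that probe set. The 12 largest measured rises and falls, the 8 rises and 8 falls from or to the floor with the smallest p, the 6 smallest p of each difference between times, RUNX1T1 and members of 32 gene lists could be named. The result of 1 of these lists is not reported here. The comparison and lists were chosen with earlier results of these data known. Alternatives were other floors, a generalised log, other filters, quantile normalization, median centring, a fit of the 4 arrays alone, no variance trend, a replicate block, all 8 controls and each array left out. Control cells at 12 h were not analysed here.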

Additional observations from a re-analysis of the deposited data

Results flagged for a closer look

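The effect of induction at 48 h differed from that at 24 h, by a test of the difference itself in limma, for 382 probe sets. Among the genes named, those more positive at 48 h were, with the difference on the log2 scale, MAGED2 (3.17), IFI16 (2.299), QPRT (3.03), PLIN2 (2.59), AHDC1 (2.199), CD1D (2.12), EVI2B (2.85), TMT1A (3.88), CDKN1A (3.76), ARID5B (2.56), PRAME (2.88), SMARCD3 (4.01) and LZTS3 (2.93). Those more negative at 48 h were TUBA4A (-4.08), KRT9 (-3.500), ZFP36L2 (-2.699), MS4A3 (-3.08), RRS1 (-2.57), RNASE2CP (-3.34), SLC1A4 (-1.81), GTPBP6 (-2.92), PTPN12 (-2.94), IL17RA (-3.55), BID (-3.19), ATP2A3 (-3.49), MFNG (-3.697), CCDC86 (-2.33), KLF10 (-2.48), CLUH (-4.47), EXOSC7 (-1.92), PSMG1 (-3.57), CXCR4 (-2.01), POLD1 (-1.45) and TMC6 (-1.75). Each passed a limma adjusted p of 0.05, with CD1D (0.0462) and IFI16 (0.0345) nearest to it. After median centring the 382 were 127, and which of these genes were lost is not given here. For EVI2B, TMT1A, CDKN1A, ARID5B, PRAME, SMARCD3, LZTS3, IL17RA, BID, ATP2A3, MFNG, CCDC86, KLF10, CLUH and PSMG1 at least 1 of the 8 arrays behind the difference lay at the floor, so its size is set in part by the floor and is not exact.

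The effect at 72 h differed from that at 48 h by the same kind of test for 38 probe sets. Of the genes named, POLD1 (-3.72), KIF2C (-1.75), AURKB (-1.91), TMC6 (-1.94) and CORO1A (-1.998) were more negative at 72 h, and CCL20 (3.59) was more positive. For POLD1 and CCL20 at least 1 of the 8 arrays behind the difference lay at the floor, with the same limit. The arrays and settings that end these calls between 72 and 48 h are given with the comparisons between times.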

How the results depend on the processing

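No called gene named or in the lists reversed its direction under the alternatives run, but after median centring the median log2 of all tested probe sets went from 0.09 to -0.07, the share of calls that were higher from 54.7% to 41.1%, and the medians of the cytokine receptor and G1 lists from 0.10 to -0.08 and from 0.06 to -0.12. The count of 1499 probe sets at 48 h was 854 to 933 with 1 array left out and stayed within 1.5 times of its value under the other alternatives, with 1047 after median centring at the low end and 2029 with all 8 controls at the high end. The 382 probe sets that differed between 48 and 24 h were 170 to 277 with 1 array left out and 127 after median centring. The 38 that differed between 72 and 48 h were 4 to 17 with 1 array left out, 120 with the floor at the 50th percentile, 87 without the filter, 3 after median centring and 85 after quantile normalization; the cause was not tested. The 0 probe sets that set the controls of 48 h apart were 1 with the floor at the 30th or 50th percentile, 12 without the filter, 4 without the variance trend and 0 to 2 with 1 array left out. Of 235 called list genes beside those named by size, 92 lost their call under no alternative, 23 with an array left out only and 120 under another setting, 68 of them after median centring. The deviations of arrays with the same replicate number correlated at 0.0073 for the 48 h groups and at -0.152 to 0.25 over 28 pairs of groups (median 0.0707, 7 over 0.1), so the numbers were not taken as pairs. A fit with the replicate number as a block gave 1564 calls at 48 h, 394 for 48 less 24 h, 33 for 72 less 48 h and 0 for the controls, changed no call among 53 named results and ended 6 of the 235 list calls. Depth is limited by background: the floor held 9.81% of tested values, so changes of dim genes are bounds.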

Other observations

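The replicates of 48 h correlated at r = 0.983 in induced and 0.991 in control cells over all probe sets, as a description, and their median absolute log2 difference was 0.29 and 0.24. Among the probe sets that fell, 626 had unequal induced replicates, and replicate 1 read above replicate 2 in 248 of them (39.6%), against 48.7% of all tested probe sets. After median centring these shares were 38.6% and 47.6%. Among the probe sets that rose the share was 49.3%. Of 169 called genes with 2 tested probe sets, the other probe set had the same sign in 153 and was called the same way in 80.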
